A study of Mus musculus with 9 samples.

Results

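MLE-12 mouse lung epithelial cells given extracellular vesicles of syndecan-1 deficient mice were compared with MLE-12 cells in regular medium. All genes with a mean of at least 1 RPKM over the 6 samples of these groups were compared, which were 11099 of the 21950 genes in the deposited table, and 6 of the 9 samples of the series. RPKM is a read count per kilobase of transcript scaled to library size. In the first group, 3 samples received vesicles from the lavage fluid of syndecan-1 deficient mice whose lungs had been injured with bleomycin, and they are called KO-vesicle cells here. The other group held 3 samples in medium without vesicles, called medium cells. Another 3 samples received vesicles of bleomycin-injured wild-type mice, and these WT-vesicle cells are used only where the vesicle kinds are set against each other. Each sample was at passage 17 in DMEM with fetal bovine serum and antibiotics. MLE-12 is a line from lung tumours of mice in which a surfactant protein C promoter drives SV40 large T antigen, so its cell cycle runs under a viral oncogene. The mouse gene of surfactant protein C is Sftpc. The recipient cells carry no edit of Sdc1, which was deleted in the vesicle donors. The design holds no vesicles of uninjured mice and no mock preparation, so donor genotype, donor injury and exposure to vesicles as such cannot be told apart in the comparison with medium. The labels give neither vesicle dose, exposure time nor the meaning of the tag D21, and they do not say whether replicates had separate donors or cultures. All p-values therefore measure the spread between these samples, which may be technical.

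Extracellular vesicles are membrane-bound particles that carry protein, lipid and RNA between cells, and the fluid of an injured lung holds vesicles of epithelial cells and leukocytes. Syndecan-1 is a heparan sulfate proteoglycan of the epithelial surface that is known to take part in forming and loading exosomes with its partner syntenin. Type I and type III interferons act through receptors and Janus kinases on transcription factors of the STAT and IRF families, which bind interferon-stimulated elements and switch on antiviral genes. Surfactant proteins mark the alveolar type 2 cell, for which the MLE-12 line is a model, and Ager marks the flat type 1 cell it gives rise to.

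Library totals recovered from the steps of the RPKM values were 28605783 to 32785456 reads in KO-vesicle cells and 25024077 to 33558660 reads in medium cells. The SD of log2 differences between 2 replicates over the tested genes was 0.113 to 0.156 in KO-vesicle cells and 0.091 to 0.097 in medium cells. On the first principal component of all 9 samples, which held 84.8% of the variance, KO-vesicle cells scored 17.41 to 20.39 and medium cells -39.55 to -38.80. WT-vesicle cells scored 18.69 to 20.78 on the same component. Of 12 lung epithelial markers, 8 passed the filter, namely Krt8, Krt19, Nkx2-1, Foxa1, Foxa2, Sftpb, Sftpc and Abca3. Krt18 stayed under 1 RPKM in all 6 samples, yet its groups did not overlap. It had 0.724, 0.574 and 0.871 RPKM in KO-vesicle cells, against 0.430, 0.234 and 0.228 RPKM in medium cells. Epcam, a pan-epithelial adhesion molecule, was listed at 0 in all 6 samples, and Sftpd at 0.026, 0.025 and 0 RPKM in KO-vesicle cells and at 0 in medium cells. Cdh1, the adhesion molecule E-cadherin, stood at 0.168, 0.183 and 0.120 RPKM in KO-vesicle cells, against 1.40, 1.39 and 1.34 RPKM in medium cells, below the filter. Its values did not overlap between the groups. Ptprc, the CD45 gene carried by all leukocytes, reached at most 0.022 RPKM in KO-vesicle cells and 0.0049 RPKM in medium cells. Adgre1 of macrophages reached at most 0.0094 RPKM in KO-vesicle cells and 0 in medium cells. The 12 lymphocyte markers summed to 0.260 to 0.388 RPKM in KO-vesicle cells and 0.102 to 0.160 RPKM in medium cells, with 6 of them at 0 throughout. Of 19 macrophage markers, 3 passed the filter and 4 were at 0, and their sum was 9.001 to 10.5 RPKM in KO-vesicle cells and 6.12 to 6.49 RPKM in medium cells. Its highest members were Cd74, Cd14 and Csf1r. The 7 erythroid markers summed to 17.4, 4.88 and 2.61 RPKM in KO-vesicle cells, against 2.94, 2.94 and 1.02 RPKM in medium cells, so replicate 1 of the vesicle-treated cells held the most globin RNA. Neutrophil markers summed to 0.982 to 1.96 RPKM in KO-vesicle cells and 1.04 to 1.43 RPKM in medium cells. Endothelial markers summed to 4.25 to 4.802 RPKM in KO-vesicle cells and 2.08 to 2.24 RPKM in medium cells. The part of other cells' RNA in the results was not tested.

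KO-vesicle and medium cells differed across most of the transcriptome, mainly by small steps. With limma on log2(RPKM + 1), 5575 genes rose in KO-vesicle cells and 3197 fell at a Benjamini-Hochberg adjusted p under 0.05, which were 50.2% and 28.8% of the genes tested and 79.0% together. Of these 8772 genes, 60.5% changed by less than 0.5 on the log2 scale, and 578 rose (5.21%) and 234 fell (2.11%) by at least 1. Only 42 rose and 16 fell by at least 2. Over all 11099 tested genes the groups did not overlap in 8988, with the KO-vesicle values all above in 5677 and all below in 3311. Among the 8772 called genes they did not overlap in 8632, all above in 5498 and all below in 3134. Every called gene printed below with its 6 values is one of these, apart from Hbb-bs. The median log2 fold change over all tested genes was 0.13. After rescaling by median-of-ratios factors that median was 0.00, with 4368 genes higher (39.4%) and 4364 lower (39.3%), so the share of higher genes among those called was 50% in place of 63.6%. Fold changes below are on the deposited scale, where 0.13 is the middle of all genes, and counts of a list should be read against 50.2% higher and 28.8% lower. Genes that rose had a median exon length of 4797 bases and a median level of 8.33 RPKM, against 3991 bases and 17.8 RPKM for genes that fell. The part of length and level in the calls was not tested. At the filter, Zscan20 and Ptprm were just inside with means of 1.0 RPKM over the 6 samples, and Wnt10b and Eomes just outside with 0.99 RPKM.

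**Figure D1:**
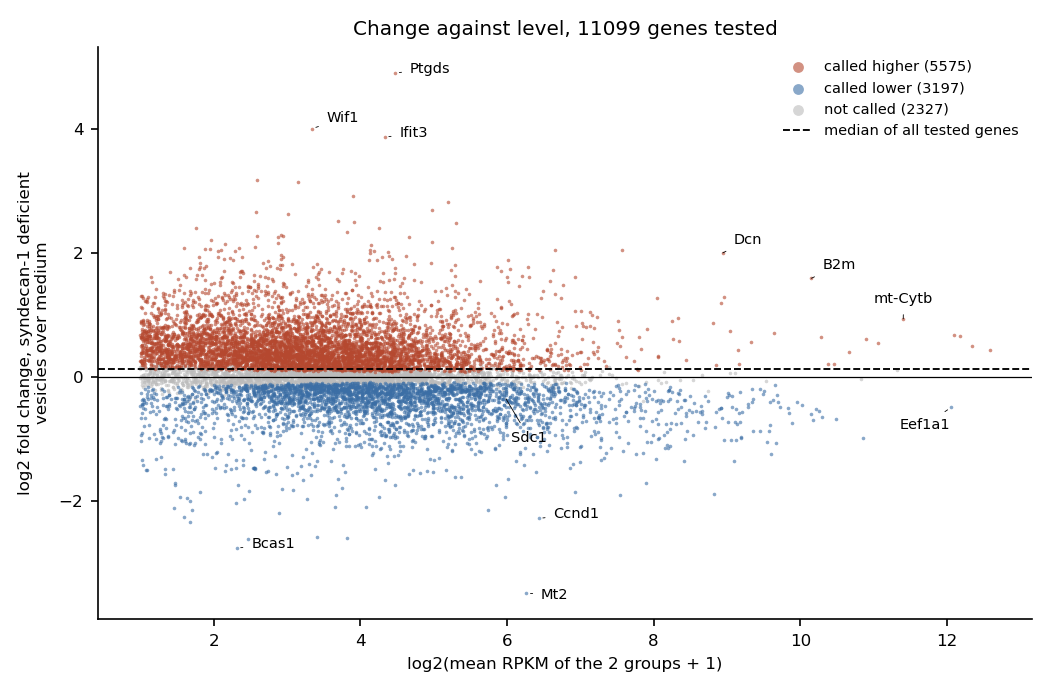
Each point is one of 11099 genes, with log2(mean RPKM + 1) across and the log2 fold change of syndecan-1 deficient vesicles over medium up the axis. The 5575 genes called higher and 3197 called lower spread over all levels, 60.5% of them with a change below 0.5 in either direction, around the dashed median of 0.13, while Ptgds, Wif1 and Ifit3 at the top and Mt2 and Bcas1 at the bottom stand apart.

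Among called genes whose groups did not overlap, the 15 largest increases held a prostaglandin synthase, Wnt and fibroblast growth factor signalling genes, interferon-induced genes and alveolar genes. Ptgds, at chr2:25466709-25470046 on the minus strand of GRCm38, makes prostaglandin D2. It stood at 39.8, 43.8 and 42.6 RPKM in KO-vesicle cells, against 0.568, 0.434 and 0.315 RPKM in medium cells, a ratio of means of 95.7 (log2 fold change 4.91 ± 0.07, adjusted p = 1.57e-09; SE, n = 3 each). All 3 vesicle-treated samples were far above all medium samples. Cbr2, a lung carbonyl reductase, had 70.1, 58.8 and 60.5 RPKM in KO-vesicle cells, against 6.63, 8.11 and 9.49 RPKM in medium cells (log2 fold change 2.83 ± 0.11, adjusted p = 4.5e-08). Wif1, a secreted inhibitor that binds Wnt ligands, at chr10:121033960-121100650, stood at 22.4, 18.6 and 13.2 RPKM in KO-vesicle cells, against 0.179, 0.196 and 0.115 RPKM in medium cells (log2 fold change 4.01 ± 0.15, adjusted p = 4.26e-08). Its 3 vesicle-treated values spread more widely than those of Ptgds, yet none came near the medium cells. Fgf1, a fibroblast growth factor, had 22.9, 21.4 and 18.9 RPKM in KO-vesicle cells, against 3.14, 2.6 and 2.76 RPKM in medium cells. Agt, the precursor of angiotensin, had 24.96, 26.7 and 24.6 RPKM in KO-vesicle cells, against 2.83, 2.3 and 2.3 RPKM in medium cells. Fgf1 and Agt rose by 2.52 ± 0.07 and 2.93 ± 0.06 on the log2 scale. Mlana, a melanosome and pigment cell protein, had 9.15, 10.5 and 9.94 RPKM in KO-vesicle cells, against 0.215, 0.191 and 0.192 RPKM in medium cells (3.18 ± 0.06).

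Appl2, an adaptor of early endosomes, had 67.5, 67.6 and 63.4 RPKM in KO-vesicle cells, against 11.3, 10.7 and 10.9 RPKM in medium cells (log2 fold change 2.49 ± 0.04, adjusted p = 3.43e-09). Myct1, a gene first described as a target of MYC, had 54.4, 56.5 and 49.3 RPKM in KO-vesicle cells, against 7.2, 7.36 and 7.52 RPKM in medium cells, and Rapsn, which clusters acetylcholine receptors in muscle, had 8.52, 10.4 and 9.005 RPKM in KO-vesicle cells, against 0.668, 0.761 and 0.444 RPKM in medium cells. Each of these 3 genes rose by 2.49 to 2.70 on the log2 scale. Ager, which encodes the type 1 cell receptor RAGE, stood at 32.5, 30.2 and 30.5 RPKM in KO-vesicle cells, against 5.2, 5.45 and 4.5 RPKM in medium cells (log2 fold change 2.41 ± 0.06, adjusted p = 1.02e-08). Mgp, a matrix protein that binds calcium, had 23.97, 20.4 and 22.9 RPKM in KO-vesicle cells, against 4.62, 2.89 and 3.6 RPKM in medium cells (log2 fold change 2.33 ± 0.12, adjusted p = 1.97e-07). Ifit3, Ifit3b and Ifi27l2a, also among the 15, are interferon-induced genes and are described with their list.

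The 15 largest decreases, chosen by the same rule, held a metallothionein, D-type cyclins and gastric and surface glycoprotein genes. Mt2, at chr8:94172664-94173568, encodes a small protein that binds zinc and copper. It fell to 10.2, 10.6 and 14.1 RPKM in KO-vesicle cells, against 147, 125 and 148 RPKM in medium cells (log2 fold change -3.49 ± 0.11, adjusted p = 2.12e-08). Slc30a1, the zinc exporter of the plasma membrane and not one of the 15, fell to 0.533, 0.479 and 0.564 RPKM in KO-vesicle cells, against 4.3, 4.56 and 4.69 RPKM in medium cells (-1.85 ± 0.06). Ccnd1, cyclin D1, at chr7:144929931-144939925, stood at 29.4, 27.3 and 28.6 RPKM in KO-vesicle cells, against 142, 140.4 and 145 RPKM in medium cells (log2 fold change -2.28 ± 0.04, adjusted p = 3.43e-09), and Ccnd2 at 3.12, 3.82 and 4.46 RPKM in KO-vesicle cells, against 19.1, 19.5 and 19.4 RPKM in medium cells (log2 fold change -2.09 ± 0.09, adjusted p = 6.48e-08). Both cyclins, like all of the 15, were chosen among genes whose groups did not overlap. The trefoil peptides of gastric mucus were nearly lost. Tff1 was listed at 0.146, 0 and 0 RPKM in KO-vesicle cells, against 3.64, 4.11 and 5.35 RPKM in medium cells, and Tff2 at 0.060, 0 and 0.052 RPKM in KO-vesicle cells, against 3.84, 4.13 and 4.04 RPKM in medium cells. Vsig1, a junction protein of the stomach, went the same way with 0.0126, 0.0363 and 0.022 RPKM in KO-vesicle cells, against 3.37, 3.38 and 3.62 RPKM in medium cells (-2.12 ± 0.06).

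Among the other decreases, Lrp2, the endocytic receptor megalin, fell to 20.3, 17.2 and 18.3 RPKM in KO-vesicle cells, against 84.99, 84.2 and 89.2 RPKM in medium cells (log2 fold change -2.16 ± 0.06, adjusted p = 1.18e-08). Tubb3, a tubulin better known from neurons, fell to 6.59, 4.45 and 5.13 RPKM in KO-vesicle cells, against 26.6, 25.1 and 27.04 RPKM in medium cells (-2.10 ± 0.10). Bcas1, named from its amplification in breast cancer, was at 0.269, 0.266 and 0.283 RPKM in KO-vesicle cells, against 8.11, 7.33 and 7.54 RPKM in medium cells (-2.77 ± 0.05). Ly6a, the surface protein Sca-1, had 0.417, 0.428 and 0.831 RPKM in KO-vesicle cells, against 8.001, 8.73 and 8.78 RPKM in medium cells (-2.62 ± 0.10). Fgfbp1, which releases fibroblast growth factors from matrix, Gsta1, a glutathione transferase, and Sorbs2, a cytoskeletal adaptor, changed by -2.14 ± 0.06, -2.01 ± 0.09 and -2.20 ± 0.04 on the log2 scale. Ccl2, a chemokine that draws monocytes, had 0.678, 1.12 and 1.02 RPKM in KO-vesicle cells, against 7.27, 6.22 and 7.29 RPKM in medium cells (log2 fold change -2.04 ± 0.09, adjusted p = 1.18e-07).

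**Figure D2:**
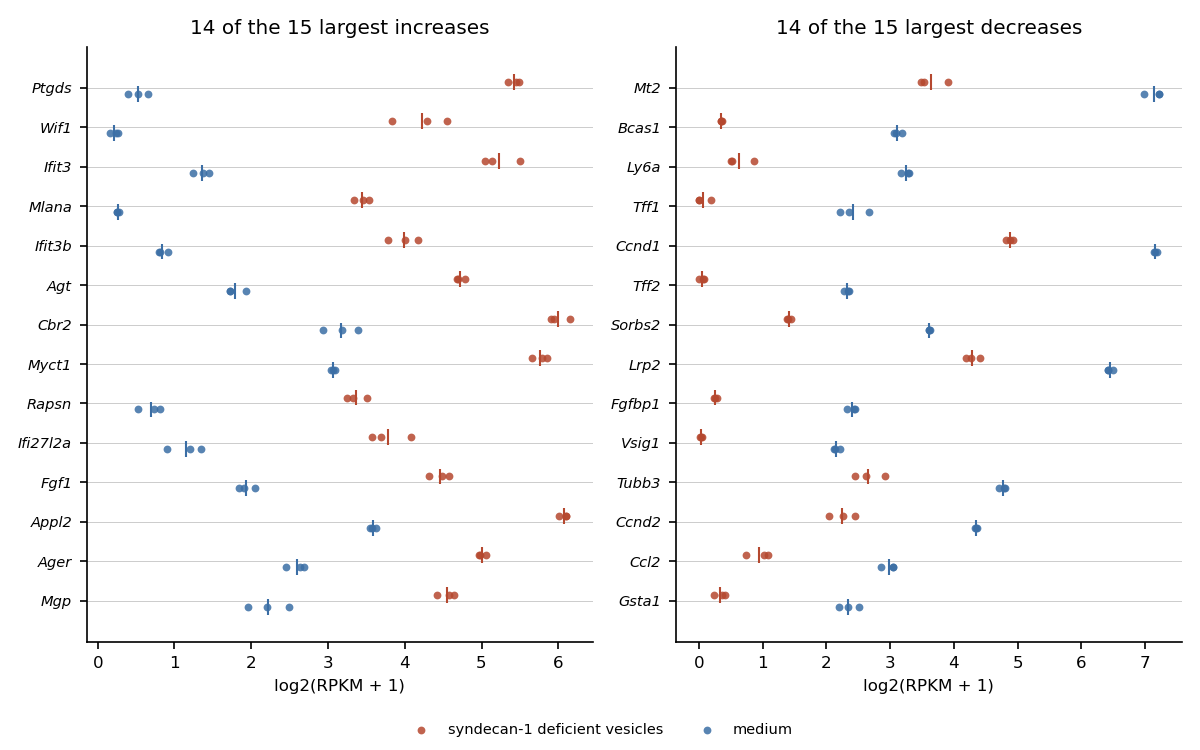
Levels of 14 of the 15 genes with the largest increase (left) and 14 of the 15 with the largest decrease (right), as log2(RPKM + 1) across, with 1 point per sample and a bar at the group mean. Red points are the 3 KO-vesicle samples and blue points the 3 medium samples. The genes were chosen among those whose groups did not overlap. Ptgds moved by 4.91 and Mt2 by -3.49 on the log2 scale.

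Interferon-induced genes rose nearly as one group. Of 57 tested members of the interferon response list, 54 rose and 1 fell, against 50.2% and 28.8% of all genes. Their median log2 fold change was 1.38, and 43 rose by at least 1. Promoter windows of 3 of them are printed because their letters hold the element that the STAT and IRF factors bind. The windows are from RefSeq (GRCm38.p6), 250 bases before to 50 after the start, 5′ to 3′, and capitals mark GAAANNGAA on either strand, with overlapping matches merged.
Ifit3, chr19:34583279-34583578, plus strand: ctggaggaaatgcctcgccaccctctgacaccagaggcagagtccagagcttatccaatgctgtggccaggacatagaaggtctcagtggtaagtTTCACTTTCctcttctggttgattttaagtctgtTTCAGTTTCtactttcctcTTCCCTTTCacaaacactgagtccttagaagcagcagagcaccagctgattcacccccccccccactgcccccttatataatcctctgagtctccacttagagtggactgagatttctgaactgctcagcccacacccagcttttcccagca
Isg15, chr4:156200769-156201068, minus strand: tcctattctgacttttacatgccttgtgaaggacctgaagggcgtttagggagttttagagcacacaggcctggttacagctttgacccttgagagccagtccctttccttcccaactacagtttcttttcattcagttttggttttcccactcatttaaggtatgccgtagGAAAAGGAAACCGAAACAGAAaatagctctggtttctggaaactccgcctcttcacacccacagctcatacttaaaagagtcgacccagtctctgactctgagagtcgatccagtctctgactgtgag
Bst2, chr8:71537423-71537722, minus strand: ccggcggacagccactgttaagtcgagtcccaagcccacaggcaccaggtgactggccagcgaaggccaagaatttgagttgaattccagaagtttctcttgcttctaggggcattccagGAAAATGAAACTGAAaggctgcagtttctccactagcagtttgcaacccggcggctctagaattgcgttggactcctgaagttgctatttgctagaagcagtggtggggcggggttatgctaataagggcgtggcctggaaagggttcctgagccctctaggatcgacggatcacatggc
GAAANNGAA was present in 58.7% of the 46 windows found for the tested interferon genes, in 6.89% of the 10675 windows of all tested genes and in 8.56% of the 32851 windows in the table. Windows were found for 39 of the list's gene symbols. Among genes that rose by at least 1 the share was 11.7% of windows, and among those that fell by at least 1 it was 6.45%.

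Each layer of the pathway held genes that rose. Of the sensors, Dhx58 (LGP2), which tunes RNA sensing, had 7.39, 7.62 and 6.76 RPKM in KO-vesicle cells, against 1.3, 1.13 and 1.06 RPKM in medium cells (log2 fold change 1.93 ± 0.06, adjusted p = 2.22e-08). Ifih1, the MDA5 sensor of long double-stranded RNA, had 8.14, 8.36 and 7.05 RPKM in KO-vesicle cells, against 2.24, 2.34 and 2.22 RPKM in medium cells, and Ddx58, the RIG-I sensor of short RNA, 15.7, 14.97 and 12.7 RPKM in KO-vesicle cells, against 7.26, 8.22 and 6.76 RPKM in medium cells. They rose by 1.44 ± 0.06 and 0.88 ± 0.08. Of the transcription factors, Irf7, the amplifier of the type I response, stood at 12.4, 12.7 and 8.34 RPKM in KO-vesicle cells, against 1.22, 2.13 and 1.27 RPKM in medium cells (log2 fold change 2.26 ± 0.17, adjusted p = 1.98e-06). Stat2 had 15.7, 16.1 and 13.05 RPKM in KO-vesicle cells, against 4.26, 4.63 and 3.69 RPKM in medium cells (1.62 ± 0.09) and Irf9 9.01, 9.19 and 7.5 RPKM in KO-vesicle cells, against 2.83, 3.16 and 2.38 RPKM in medium cells (1.34 ± 0.09). None of these 3 factors overlapped between the groups.

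The largest changes were those of effectors. Ifit3, an antiviral protein that binds RNA with its IFIT partners, had 44.1, 34.01 and 32.1 RPKM in KO-vesicle cells, against 1.59, 1.72 and 1.37 RPKM in medium cells (log2 fold change 3.87 ± 0.11, adjusted p = 1.33e-08). Its near copy Ifit3b, which can share reads with it, had 17.1, 14.97 and 12.7 RPKM in KO-vesicle cells, against 0.752, 0.879 and 0.739 RPKM in medium cells (3.14 ± 0.09), and Ifit1 8.11, 7.31 and 5.28 RPKM in KO-vesicle cells, against 0.856, 1.04 and 0.812 RPKM in medium cells (2.04 ± 0.12). Isg15, a ubiquitin-like modifier, stood at 48.04, 43.8 and 30.9 RPKM in KO-vesicle cells, against 8.27, 8.75 and 6.13 RPKM in medium cells (log2 fold change 2.25 ± 0.16, adjusted p = 1.61e-06). Usp18, the protease that removes it and damps the receptor, had 5.34, 4.67 and 3.07 RPKM in KO-vesicle cells, against 0.491, 0.716 and 0.516 RPKM in medium cells (1.75 ± 0.14). Bst2, the tetherin that holds budding virus, was abundant with 209, 186 and 154 RPKM in KO-vesicle cells, against 58.4, 60.96 and 56.2 RPKM in medium cells (1.62 ± 0.10). Ifitm3, which blocks viral fusion, had 171, 126 and 132 RPKM in KO-vesicle cells, against 46.9, 50.9 and 46.1 RPKM in medium cells (1.55 ± 0.10), while its neighbour Ifitm2 had 126, 111 and 125 RPKM in KO-vesicle cells, against 113, 111 and 117 RPKM in medium cells and did not pass the test. Ifi27l2a had 15.9, 11.9 and 10.9 RPKM in KO-vesicle cells, against 1.3, 1.54 and 0.863 RPKM in medium cells (2.63 ± 0.14). The guanylate-binding proteins Gbp7 and Gbp6 attack microbes within cells. Gbp7 had 3.96, 4.27 and 3.95 RPKM in KO-vesicle cells, against 0.732, 0.711 and 0.619 RPKM in medium cells (1.58 ± 0.06). Gbp6, a symbol that 2 gene records of the table share, rose in both.

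Cxcl10, an interferon-induced chemokine, was the 1 member that fell, with 1.72, 1.43 and 1.57 RPKM in KO-vesicle cells, against 3.37, 3.27 and 3.24 RPKM in medium cells (log2 fold change -0.74 ± 0.06, adjusted p = 2.85e-06). Samhd1, a nuclease of deoxynucleotides, had 21.8, 19.2 and 17.8 RPKM in KO-vesicle cells, against 21.5, 21.2 and 20.4 RPKM in medium cells and was not called. These exceptions, Ifitm2 included, were named after their values were seen, as were the exceptions of the lists that follow. Among the 54 that rose, replicate 3 was the lowest of the KO-vesicle samples in 47 and the highest in 0. Over all 5575 genes that rose, it was the lowest in 2239 and the highest in 1065. Likewise medium replicate 3 was lowest of its group in 46 of the 54 and medium replicate 2 highest in 40. Over the 5575 genes these counts were 2111 and 2276. In each of the 54, the lowest vesicle-treated value still exceeded the highest medium value, as in 5498 of all 5575 genes that rose.

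**Figure D3:**
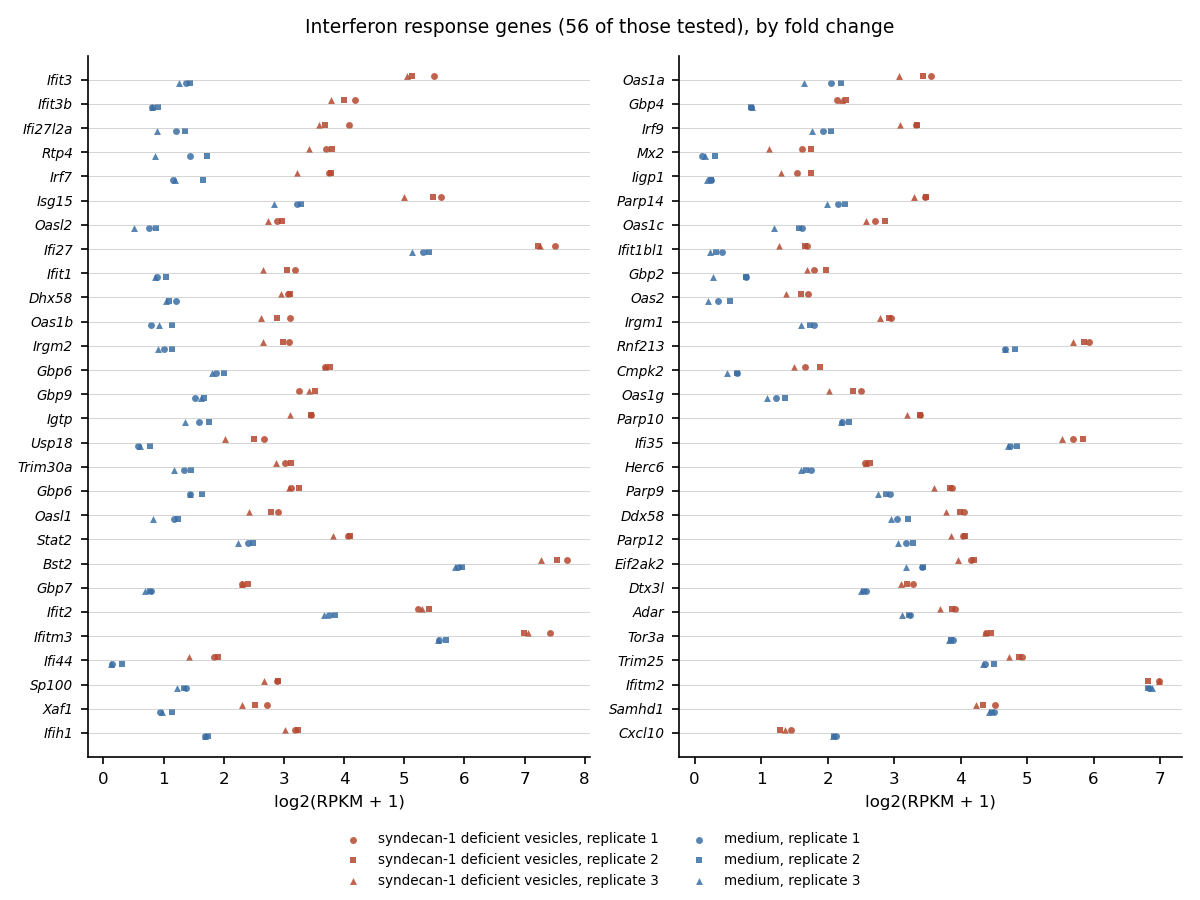
Levels of 56 of the 57 tested interferon response genes as log2(RPKM + 1), ordered by fold change down the left and then the right panel, with a marker per replicate. Red KO-vesicle points lie right of blue medium points in the 53 genes drawn that rose, Cxcl10 lies the other way, and the red triangles of replicate 3 are the leftmost red points in 46 of them.

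The interferon genes on the ligand list, Ifnb1, Ifnl2, Ifnl3 and Ifnk, were listed at 0 in all 6 samples. Of 10 tested ligand and receptor genes 6 rose and 0 fell (4 and 2 after rescaling). Il10rb, a chain of the type III receptor, had 10.1, 10.3 and 9.96 RPKM in KO-vesicle cells, against 5.16, 5.0003 and 5.15 RPKM in medium cells (log2 fold change 0.86 ± 0.04, adjusted p = 1.02e-07), and Ifnlr1, its other chain, had 3.996, 3.78 and 3.95 RPKM in KO-vesicle cells, against 2.17, 2.42 and 2.13 RPKM in medium cells (0.60 ± 0.05). The type I receptor chain Ifnar1 was at 0.06 and was not called. Of 12 tested sensors and adaptors of foreign nucleic acid 8 rose and 0 fell (6 and 1 after rescaling), led by Tlr3, the endosomal sensor of double-stranded RNA, with 8.24, 9.56 and 7.72 RPKM in KO-vesicle cells, against 4.59, 5.54 and 4.49 RPKM in medium cells (log2 fold change 0.69 ± 0.09, adjusted p = 5.97e-05). Irf3 had 14.6, 16.4 and 16.3 RPKM in KO-vesicle cells, against 11.6, 11.4 and 10.8 RPKM in medium cells (0.45 ± 0.05).

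Antigen presentation through MHC class I rose in parts. Of 20 tested members 15 rose and 3 fell, with a median of 0.93. Nlrc5, the activator of class I genes, had 7.6, 7.83 and 6.3 RPKM in KO-vesicle cells, against 0.94, 1.02 and 0.878 RPKM in medium cells (log2 fold change 2.08 ± 0.08, adjusted p = 3.95e-08). B2m, the light chain, had 1718, 1691 and 1711 RPKM in KO-vesicle cells, against 562, 573 and 562 RPKM in medium cells (log2 fold change 1.59 ± 0.05, adjusted p = 1.54e-08). H2-Q4, a nonclassical heavy chain, had 101.0, 105 and 97.3 RPKM in KO-vesicle cells, against 27.5, 26.5 and 26.1 RPKM in medium cells, and the classical H2-K1 422, 381 and 379.8 RPKM in KO-vesicle cells, against 209.8, 208 and 216 RPKM in medium cells. Tap1 and Tap2, the peptide pump, rose by 1.26 ± 0.05 and 1.37 ± 0.05, and the immunoproteasome subunit Psmb9 by 1.45 ± 0.08. The members that fell, Calr (-1.36 ± 0.06), Pdia3 (-0.76 ± 0.04) and Canx (-0.40 ± 0.04), are general chaperones of the endoplasmic reticulum. H2 genes are close copies of each other, so reads could be split between them.

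Inflammatory genes counted near the share of all genes. On the NF-kB and inflammation list, 10 of 19 tested members rose and 6 fell (6 and 9 after rescaling), with a median of 0.14 against 0.13 over all genes. Tlr4, the lipopolysaccharide receptor, had 7.997, 9.11 and 8.04 RPKM in KO-vesicle cells, against 2.62, 2.72 and 2.42 RPKM in medium cells (log2 fold change 1.39 ± 0.06, adjusted p = 7.87e-08), and Tlr2, a receptor for bacterial lipoproteins, 8.36, 10.1 and 9.16 RPKM in KO-vesicle cells, against 3.25, 2.82 and 2.88 RPKM in medium cells (1.36 ± 0.07). Ccl2 fell as given above. The cytokines Il6, Il1b and Tnf were below the filter.

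**Figure D4:**
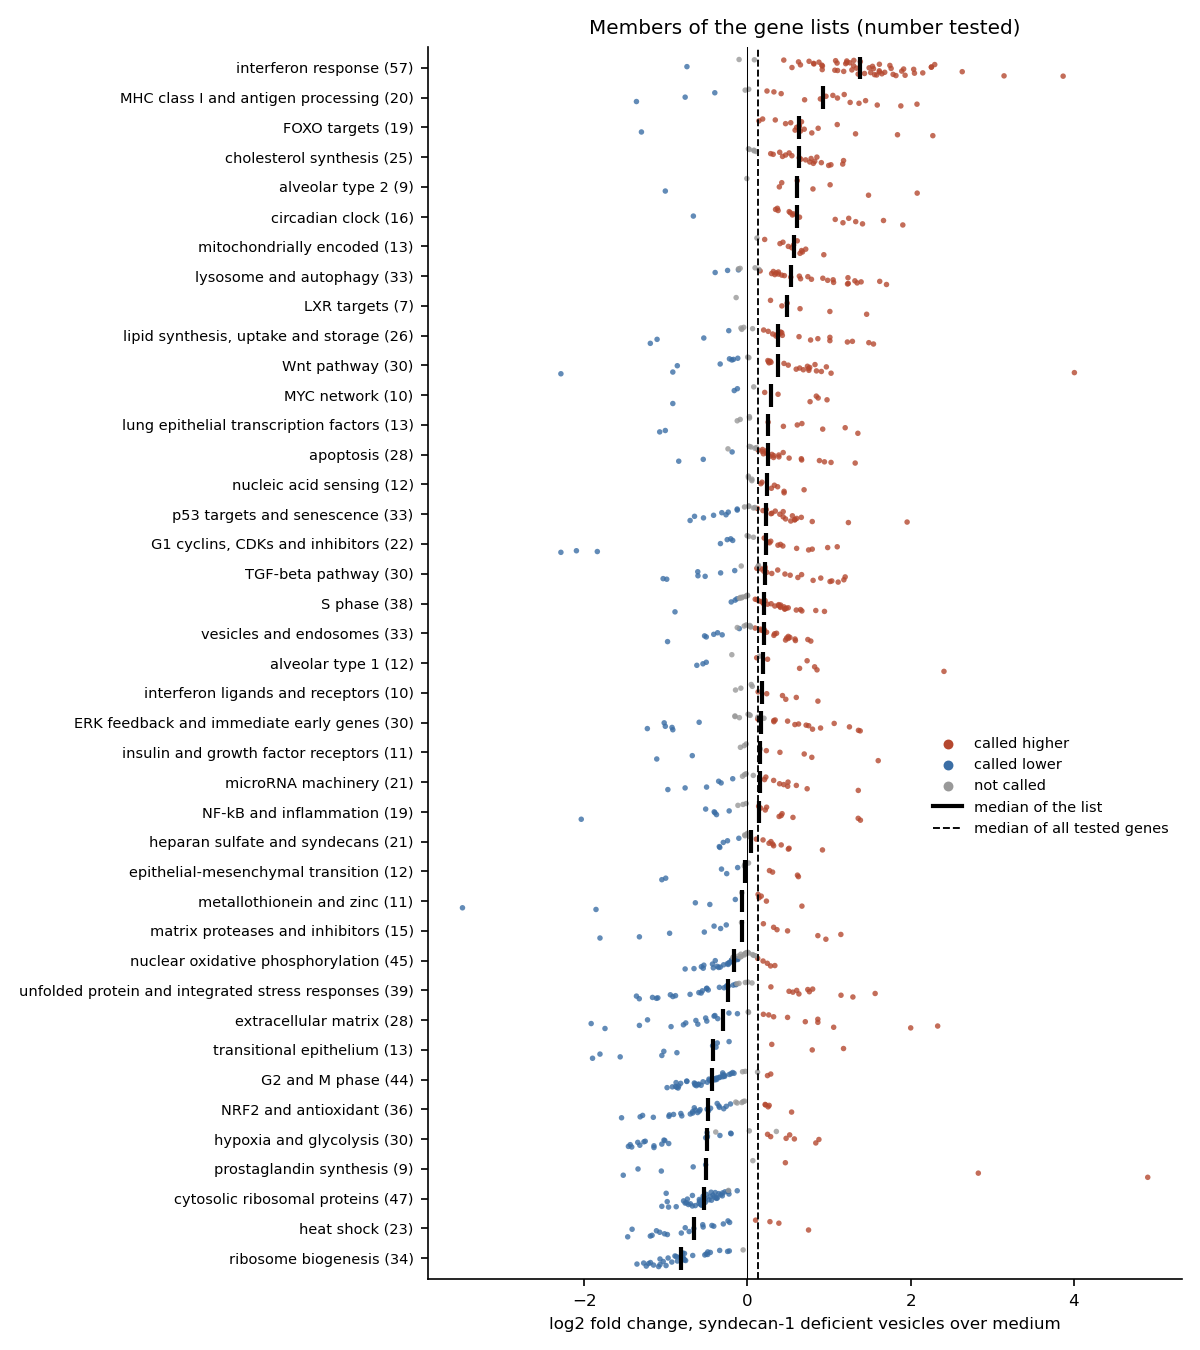
Log2 fold changes of the tested members of 41 gene lists, 1 point per gene, with a bar at each list's median and the dashed line at 0.13, the median of all genes. Interferon response genes lie highest with a median of 1.38 and ribosome biogenesis genes lowest with -0.81.

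Alveolar differentiation genes split between rising surfactant and falling transitional genes. Of 9 tested alveolar type 2 genes 7 rose and 1 fell, with a median of 0.61, while 11 of the list's 20 genes were below the filter. Sftpb, which spreads the surfactant film, stood at 64.6, 60.1 and 57.1 RPKM in KO-vesicle cells, against 13.2, 12.3 and 15.3 RPKM in medium cells (log2 fold change 2.08 ± 0.08, adjusted p = 3.95e-08). Sftpc had 21.1, 19.9 and 15.4 RPKM in KO-vesicle cells, against 8.36, 9.23 and 8.6 RPKM in medium cells (1.01 ± 0.10), and Lpcat1, an enzyme of surfactant lipid, 54.6, 55.7 and 55.5 RPKM in KO-vesicle cells, against 18.5, 19.6 and 19.2 RPKM in medium cells (log2 fold change 1.48 ± 0.04, adjusted p = 7.47e-09). Nkx2-1, the factor that governs lung epithelial identity, rose by 0.61 ± 0.07 and Abca3, which loads lamellar bodies, by 0.39 ± 0.03. Etv5, a factor that maintains type 2 cells, was the member that fell, to 8.11, 8.07 and 6.54 RPKM in KO-vesicle cells, against 16.02, 16.5 and 15.9 RPKM in medium cells (-1.01 ± 0.07). Of 12 type 1 genes 7 rose and 3 fell (6 and 4 after rescaling), near the shares of all genes. Their median was 0.20, against 0.13 over all genes. Beside Ager, Hopx had 45.7, 44.7 and 47.2 RPKM in KO-vesicle cells, against 23.6, 24.6 and 26.6 RPKM in medium cells (0.85 ± 0.05) and Clic5, a chloride channel protein, 59.4, 67.5 and 66.8 RPKM in KO-vesicle cells, against 35.7, 36.7 and 35.6 RPKM in medium cells (0.82 ± 0.05), while Pdpn fell by 0.54 ± 0.06 and Cav1 by 0.50 ± 0.05.

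Transitional genes mark epithelial cells between the type 2 and type 1 states after injury, and 10 of 13 tested members fell while 3 rose (median -0.43). Krt19 fell to 189.6, 178 and 204 RPKM in KO-vesicle cells, against 709.9, 694 and 731 RPKM in medium cells (log2 fold change -1.90 ± 0.06, adjusted p = 1.54e-08). Krt8, the keratin for which the state is often named, fell to 153, 162 and 173 RPKM in KO-vesicle cells, against 335, 333 and 342 RPKM in medium cells (log2 fold change -1.05 ± 0.05, adjusted p = 1.42e-07). Plaur, the urokinase receptor, fell to 1.93, 2.54 and 2.75 RPKM in KO-vesicle cells, against 10.8, 10.1 and 11.7 RPKM in medium cells (-1.81 ± 0.09). The 3 that rose were Nupr1 (1.18 ± 0.11), Cdkn1a (0.79 ± 0.05) and Itgav (0.30 ± 0.04). Among lung transcription factors 7 of 13 rose and 2 fell (7 and 4 after rescaling). Tfcp2l1, a grainyhead-family factor of epithelia, had 51.05, 58.8 and 61.04 RPKM in KO-vesicle cells, against 21.3, 23.1 and 20.6 RPKM in medium cells (log2 fold change 1.35 ± 0.07, adjusted p = 1.98e-07), and Trp63, the factor of basal cells, 0.483, 0.599 and 0.578 RPKM in KO-vesicle cells, against 2.23, 2.27 and 2.31 RPKM in medium cells (-1.07 ± 0.06). Muc5b, the main airway mucin, fell to 12.01, 12.7 and 13.5 RPKM in KO-vesicle cells, against 26.4, 25.2 and 25.6 RPKM in medium cells (log2 fold change -0.96 ± 0.05, adjusted p = 1.65e-07). Foxj1 of ciliated cells, below the filter, was listed at 1.71, 1.43 and 1.41 RPKM in KO-vesicle cells, against 0.204, 0.216 and 0.152 RPKM in medium cells. In these bulk samples a shift in the share of cells of a kind and a change of RNA per cell cannot be told apart.

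Most G2 and M phase genes fell, while the counts of the G1 list lay near the share of all genes. In the G1 list 12 of 22 tested members rose and 7 fell, where 50.2% of all genes rose and 28.8% fell. Its 3 largest changes were decreases of the cyclins and kinase that start the cycle. Beside Ccnd1 and Ccnd2, their partner Cdk6 fell to 1.32, 1.55 and 1.5 RPKM in KO-vesicle cells, against 7.67, 7.95 and 7.68 RPKM in medium cells (log2 fold change -1.84 ± 0.05, adjusted p = 1.45e-08). Rising members included inhibitors. Cdkn1b, the inhibitor p27, rose by 1.10 ± 0.09, Cdkn1a, the inhibitor p21, had 38.01, 38.4 and 34.9 RPKM in KO-vesicle cells, against 20.3, 20.4 and 22.2 RPKM in medium cells (log2 fold change 0.79 ± 0.05, adjusted p = 7.07e-07), and the retinoblastoma gene Rb1 rose by 0.98 ± 0.07. Of 38 S phase genes 26 rose and 4 fell, which became 18 and 12 after rescaling, where 39.4% of all genes rose and 39.3% fell. Pcna, the sliding clamp of DNA polymerase, had 444, 403 and 421 RPKM in KO-vesicle cells, against 219.8, 218 and 219.9 RPKM in medium cells (log2 fold change 0.94 ± 0.05, adjusted p = 1.58e-07), whereas Rrm2, which makes deoxynucleotides, fell to 42.8, 41.4 and 38.95 RPKM in KO-vesicle cells, against 77.2, 76.7 and 76.2 RPKM in medium cells (log2 fold change -0.89 ± 0.04, adjusted p = 1.24e-07).

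In G2 and M phase, 39 of 44 genes fell and 2 rose, with a median of -0.43, and none changed by 1 or more. Promoters of 2 members are shown because most windows of this list carried TTTGAA, the core of the cell-cycle homology element, which is in capitals on either strand.
Plk1, chr7:122159185-122159484, plus strand: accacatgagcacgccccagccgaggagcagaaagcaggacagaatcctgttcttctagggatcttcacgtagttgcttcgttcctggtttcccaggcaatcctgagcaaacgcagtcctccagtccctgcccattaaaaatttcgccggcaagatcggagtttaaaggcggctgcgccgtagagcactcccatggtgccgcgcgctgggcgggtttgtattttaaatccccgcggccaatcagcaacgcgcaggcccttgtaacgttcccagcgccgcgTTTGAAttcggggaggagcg
Ccnf, chr17:24251360-24251659, minus strand: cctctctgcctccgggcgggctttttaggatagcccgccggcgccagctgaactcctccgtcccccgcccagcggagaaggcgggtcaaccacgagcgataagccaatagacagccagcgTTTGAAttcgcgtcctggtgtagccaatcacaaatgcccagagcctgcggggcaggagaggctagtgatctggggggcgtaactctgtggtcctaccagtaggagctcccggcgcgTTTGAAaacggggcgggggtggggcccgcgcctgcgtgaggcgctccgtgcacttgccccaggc
TTTGAA stood in 69.2% of the 39 windows of these genes, against 11.7% of windows of all tested genes and 17.9% of all windows in the table. Plk1, a kinase of mitotic entry, had 29.8, 28.5 and 31.2 RPKM in KO-vesicle cells, against 59.3, 59.98 and 60.6 RPKM in medium cells (log2 fold change -0.98 ± 0.04, adjusted p = 6.11e-08). Ccnf, an F-box protein, had 11.3, 10.4 and 11.3 RPKM in KO-vesicle cells, against 21.9, 22.2 and 21.1 RPKM in medium cells (-0.92 ± 0.04), and Aurka, the spindle kinase Aurora A, 14.1, 13.6 and 13.9 RPKM in KO-vesicle cells, against 26.04, 25.6 and 25.7 RPKM in medium cells (-0.85 ± 0.03). Birc5, the inhibitor survivin, had 26.6, 27.2 and 28.3 RPKM in KO-vesicle cells, against 53.9, 50.6 and 49.1 RPKM in medium cells (-0.88 ± 0.04), and Mki67, the proliferation marker, fell by 0.34 ± 0.04. The 2 that rose were Cdc25b, a phosphatase of mitotic entry (0.25 ± 0.03), and Ccne1, cyclin E1, which acts earlier and also stands on the G1 list (0.29 ± 0.06).

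Of 33 p53 target and senescence genes 19 rose and 9 fell (15 and 11 after rescaling), a share of higher genes near that of all genes. Trp53inp1, a stress-induced regulator of autophagy and death, had 40.001, 40.6 and 34.1 RPKM in KO-vesicle cells, against 8.72, 9.37 and 9.13 RPKM in medium cells (log2 fold change 1.96 ± 0.06, adjusted p = 2.6e-08), and Ddb2, which finds damaged DNA, 14.2, 14.8 and 14.4 RPKM in KO-vesicle cells, against 5.6, 5.75 and 5.36 RPKM in medium cells (log2 fold change 1.24 ± 0.04, adjusted p = 2.55e-08). Of 28 apoptosis genes 20 rose and 3 fell (14 and 4 after rescaling). Bmf, a BH3-only killer protein, had 9.24, 9.91 and 9.33 RPKM in KO-vesicle cells, against 3.12, 3.43 and 3.06 RPKM in medium cells (log2 fold change 1.32 ± 0.05, adjusted p = 4.49e-08), while Bak1, a pore former, fell to 15.6, 14.3 and 15.5 RPKM in KO-vesicle cells, against 28.03, 28.9 and 26.7 RPKM in medium cells (-0.84 ± 0.05).

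Genes that build ribosomes fell as a group. All but 1 of 34 tested ribosome biogenesis genes fell, 10 of them by at least 1, with a median of -0.81. Ncl, nucleolin, had 48.6, 48.01 and 46.5 RPKM in KO-vesicle cells, against 118, 114 and 110.0 RPKM in medium cells (log2 fold change -1.24 ± 0.04, adjusted p = 2.09e-08), and Nop2, an RNA methyltransferase, 22.9, 22.1 and 22.7 RPKM in KO-vesicle cells, against 48.6, 49.6 and 48.8 RPKM in medium cells (log2 fold change -1.09 ± 0.03, adjusted p = 1.87e-08). The exception, Nop14, was at -0.05 and was not called. Myc, the transcription factor that drives this programme, fell to 9.66, 9.36 and 10.02 RPKM in KO-vesicle cells, against 19.4, 19.2 and 18.7 RPKM in medium cells (log2 fold change -0.91 ± 0.04, adjusted p = 7.49e-08). Its antagonists Mxd1, Mxd4, Mxi1 and Mnt rose by 0.77 to 0.98, and the network list as a whole had 6 of 10 genes higher and 3 lower. Of 47 cytosolic ribosomal protein genes 46 fell and 0 rose (median -0.53). Rpl4 had 383, 408 and 395 RPKM in KO-vesicle cells, against 785, 777 and 757 RPKM in medium cells (log2 fold change -0.97 ± 0.05, adjusted p = 1.36e-07). Ribosomal protein genes have many processed copies, so reads may be shared with them. Together they held 6.29%, 5.68% and 6.05% of summed RPKM in KO-vesicle cells, against 8.68%, 8.47% and 8.81% in medium cells.

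Mitochondrial RNA rose at the same time. Of 13 mitochondrially encoded genes 12 rose and 0 fell (median 0.57), and they held 12.8%, 12.95% and 12.54% of summed RPKM in KO-vesicle cells, against 8.64%, 8.52% and 8.22% in medium cells. mt-Cytb, a subunit of complex III, had 3578, 3536 and 3558 RPKM in KO-vesicle cells, against 1999, 1816 and 1766 RPKM in medium cells (log2 fold change 0.94 ± 0.07, adjusted p = 1.62e-06). mt-Co1, a complex IV subunit and the most abundant RNA that rose, had 7220.1, 7066 and 6839 RPKM in KO-vesicle cells, against 5509, 5123 and 4993 RPKM in medium cells (0.44 ± 0.08), a call lost with no filter on low values (adjusted p = 0.172), as was that of mt-Co2 (adjusted p = 0.0864). Of the 45 nuclear genes of oxidative phosphorylation, 5 rose and 25 fell. Ndufs4, a complex I subunit, had 10.3, 10.5 and 10.4 RPKM in KO-vesicle cells, against 18.3, 18.8 and 17.9 RPKM in medium cells (log2 fold change -0.76 ± 0.04, adjusted p = 1.37e-07). Among the most abundant decreases were Eef1a1, an elongation factor, with 3602, 3366 and 3641 RPKM in KO-vesicle cells, against 4998, 4889 and 5048 RPKM in medium cells (log2 fold change -0.49 ± 0.07, adjusted p = 0.000127, and 0.0564 with no filter), and Ftl1, the ferritin light chain, with 869, 1105 and 977 RPKM in KO-vesicle cells, against 1622, 1522 and 1470.4 RPKM in medium cells (-0.65 ± 0.09).

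Most chaperone genes fell. Of 23 heat shock genes 19 fell and 4 rose (median -0.66). Fkbp4, a partner of HSP90, had 59.6, 58.7 and 63.3 RPKM in KO-vesicle cells, against 165, 173 and 168 RPKM in medium cells (log2 fold change -1.47 ± 0.04, adjusted p = 1.42e-08). Hspd1, the mitochondrial HSP60, had 117, 117 and 115 RPKM in KO-vesicle cells, against 274, 264 and 261 RPKM in medium cells (log2 fold change -1.19 ± 0.04, adjusted p = 2.09e-08), and Cct2 of the cytosolic folding ring 103, 104 and 105 RPKM in KO-vesicle cells, against 210.1, 208 and 202 RPKM in medium cells (-0.98 ± 0.04). In the unfolded protein and integrated stress list 23 of 39 fell and 11 rose. Those that fell included the chaperones of the endoplasmic reticulum. Hspa5, its HSP70 (BiP), had 149, 144 and 151 RPKM in KO-vesicle cells, against 374, 374 and 367 RPKM in medium cells (log2 fold change -1.32 ± 0.04, adjusted p = 1.54e-08), and Pdia4, a disulfide isomerase, 53.4, 54.3 and 54.8 RPKM in KO-vesicle cells, against 119.7, 120.2 and 115 RPKM in medium cells (-1.11 ± 0.04). Among those that rose were stress transcription factors. Atf5 had 56.2, 51.5 and 55.9 RPKM in KO-vesicle cells, against 20.7, 21.8 and 22.5 RPKM in medium cells (log2 fold change 1.29 ± 0.05, adjusted p = 4.19e-08), Ddit3, the factor CHOP, rose by 1.57 ± 0.09 and Trib3, a pseudokinase it induces, by 1.15 ± 0.06, while Atf4 itself fell by 0.29 ± 0.04.

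Most antioxidant and glycolytic genes fell. Of 36 tested NRF2 and antioxidant genes 26 fell and 5 rose (median -0.48), and Nfe2l2, which encodes NRF2, fell by 0.58 ± 0.05. Gpx1, a glutathione peroxidase, had 44.7, 42.7 and 39.2 RPKM in KO-vesicle cells, against 127, 126 and 121 RPKM in medium cells (log2 fold change -1.54 ± 0.05, adjusted p = 2.3e-08). Txnrd1, thioredoxin reductase, had 47.7, 44.4 and 46.2 RPKM in KO-vesicle cells, against 104, 102 and 105 RPKM in medium cells (log2 fold change -1.15 ± 0.04, adjusted p = 2.72e-08), and Pgd of the pentose phosphate path 19.2, 17.3 and 18.3 RPKM in KO-vesicle cells, against 47.5, 45.4 and 47.8 RPKM in medium cells (-1.31 ± 0.05). Among the 5 that rose were Hmox1, which breaks down heme (0.54 ± 0.04), and Sod2, the mitochondrial superoxide dismutase (0.25 ± 0.04). Of 30 hypoxia and glycolysis genes 20 fell, 12 by at least 1, and 7 rose (median -0.49). Slc2a1, the glucose transporter GLUT1, had 6.72, 6.32 and 6.18 RPKM in KO-vesicle cells, against 20.02, 17.02 and 19.4 RPKM in medium cells (log2 fold change -1.42 ± 0.06, adjusted p = 7.87e-08), Hk2, hexokinase 2, 3.56, 3.13 and 3.07 RPKM in KO-vesicle cells, against 11.3, 9.69 and 11.1 RPKM in medium cells (log2 fold change -1.46 ± 0.07, adjusted p = 1.13e-07), and Pgam1, a glycolytic mutase, 177, 183 and 183 RPKM in KO-vesicle cells, against 415, 381 and 408 RPKM in medium cells (-1.14 ± 0.05). Hif1a, the oxygen-regulated factor, rose by 0.84 ± 0.05. Of 11 metallothionein and zinc genes 5 rose and 5 fell, and 1 rose and 6 fell after rescaling. Mt1 stood at 168, 129.6 and 154 RPKM in KO-vesicle cells, against 253, 208 and 240.4 RPKM in medium cells (log2 fold change -0.64 ± 0.10, adjusted p = 0.00026), a smaller decrease than that of its neighbour Mt2.

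Most cholesterol and lipid genes rose. Of 25 tested cholesterol genes 20 rose and 0 fell (median 0.64). Insig1, which holds back sterol sensing, had 183, 191 and 194 RPKM in KO-vesicle cells, against 91.8, 96.6 and 94.8 RPKM in medium cells (log2 fold change 1.00 ± 0.04, adjusted p = 5.79e-08), and Msmo1, a late enzyme of the pathway, 40.4, 44.2 and 42.2 RPKM in KO-vesicle cells, against 17.8, 19.5 and 17.5 RPKM in medium cells (1.17 ± 0.05). Hmgcs1, an early enzyme, was at 0.03 and was not called. Of 26 lipid genes 18 rose and 4 fell. Cd36, a fatty acid receptor, had 151, 166 and 159 RPKM in KO-vesicle cells, against 54.8, 57.5 and 55.7 RPKM in medium cells (log2 fold change 1.49 ± 0.04, adjusted p = 1.54e-08). Plin3, which coats lipid droplets, had 71.5, 74.5 and 73.1 RPKM in KO-vesicle cells, against 23.8, 24.8 and 24.5 RPKM in medium cells (log2 fold change 1.55 ± 0.04, adjusted p = 5.76e-09), while Pparg fell by 1.11 ± 0.05. Of 7 tested genes on the LXR list, which holds LXR receptors and their targets, 6 rose and 0 fell. Pltp, which moves phospholipid between lipoproteins, had 105, 102 and 105 RPKM in KO-vesicle cells, against 37.6, 37.3 and 36.6 RPKM in medium cells (log2 fold change 1.46 ± 0.03, adjusted p = 5.67e-09), and Srebf1, the lipogenic factor, 67.6, 65.4 and 61.6 RPKM in KO-vesicle cells, against 31.2, 32.2 and 31.6 RPKM in medium cells (1.01 ± 0.04).

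Lysosomal genes rose as well, 26 of 33 tested, with 3 lower and 10 higher by at least 1 (median 0.53). Promoters of 2 members are shown for their E-boxes, CACGTG, the letters that the lysosomal factors of the TFEB and MITF family and many others bind. CACGTG reads the same on both strands and is in capitals.
Mcoln1, chr8:3500269-3500568, plus strand: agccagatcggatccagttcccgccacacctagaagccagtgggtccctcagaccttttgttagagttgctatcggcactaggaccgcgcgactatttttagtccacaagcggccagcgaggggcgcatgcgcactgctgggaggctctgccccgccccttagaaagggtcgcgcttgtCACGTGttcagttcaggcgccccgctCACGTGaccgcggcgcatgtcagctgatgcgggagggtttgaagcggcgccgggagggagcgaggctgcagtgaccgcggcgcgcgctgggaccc
Lamp1, chr8:13158911-13159210, plus strand: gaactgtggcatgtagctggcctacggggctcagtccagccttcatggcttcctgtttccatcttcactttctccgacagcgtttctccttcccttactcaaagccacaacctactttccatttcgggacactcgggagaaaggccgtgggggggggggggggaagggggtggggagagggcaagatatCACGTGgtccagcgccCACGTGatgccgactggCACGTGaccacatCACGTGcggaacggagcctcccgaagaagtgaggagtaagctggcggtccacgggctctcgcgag
CACGTG was found in 32.4% of the 34 windows of lysosome and autophagy genes, against 10.1% of windows of all tested genes and 7.15% of all windows. Between lists the share ran from 0% of 9 windows for interferon ligands and receptors to 50% of 10 windows for insulin and growth factor receptors. Among genes that rose by at least 1 it was 11.2% of windows, and among those that fell by at least 1 it was 15.2%. Mcoln1, the calcium channel of lysosomes, rose by 1.62 ± 0.06 and Lamp1, their main membrane protein, had 705, 625 and 653 RPKM in KO-vesicle cells, against 392, 393 and 399 RPKM in medium cells (log2 fold change 0.74 ± 0.05, adjusted p = 1.6e-06). Ctsa, cathepsin A, had 91.4, 93.8 and 89.3 RPKM in KO-vesicle cells, against 26.8, 27.9 and 27.4 RPKM in medium cells (log2 fold change 1.70 ± 0.04, adjusted p = 5.67e-09). Atp6v0d1, a subunit of the proton pump, had 173, 176 and 172 RPKM in KO-vesicle cells, against 82.1, 83.8 and 82.9 RPKM in medium cells (1.06 ± 0.03). Tfeb rose by 0.38 ± 0.06 and Mitf by 1.23 ± 0.08, while Tfe3 fell by 0.11 ± 0.04.

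**Figure D5:**
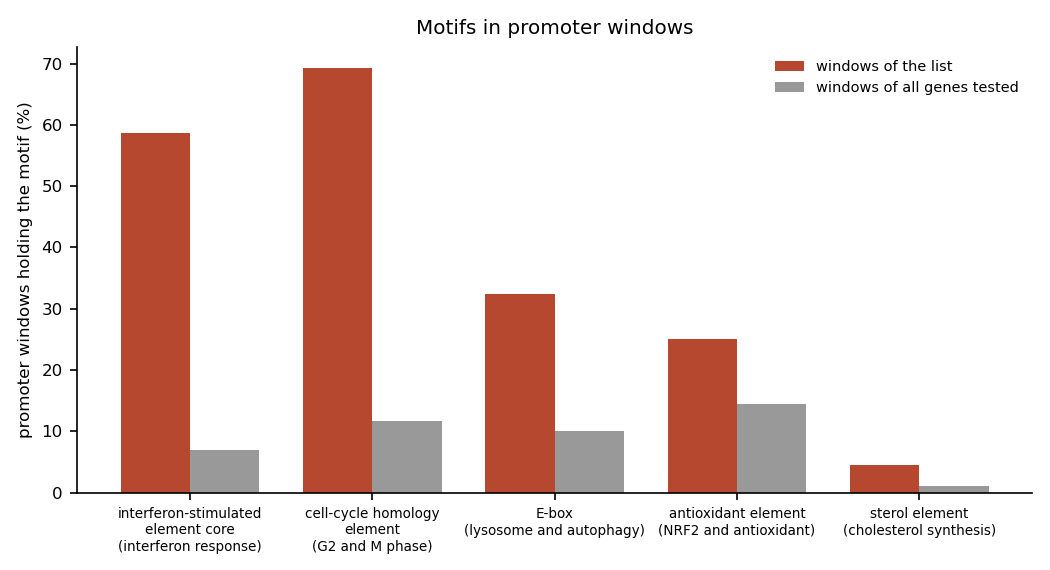
Share of 300-base promoter windows that hold each motif, in percent, for the windows of the named list (red) and of all genes tested (grey). GAAANNGAA, TTTGAA and CACGTG stand in 58.7%, 69.2% and 32.4% of their lists' windows, against 6.89%, 11.7% and 10.1% of all tested windows.

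The antioxidant element, TGACNNNGC, was in 25% of windows of NRF2 genes and in 14.4% of tested windows, and the sterol element, TCACNCCAC, in 1 of 22 windows of cholesterol genes (4.55%) and 1.16% of tested windows. A match in these windows is a description of the letters and says nothing about binding.

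Most genes of the FOXO list and most clock genes rose. Of 19 tested genes on the FOXO list, which holds FOXO factors and their targets, 18 rose and 1 fell (median 0.64). Pik3ip1, an inhibitor of PI3-kinase, had 10.7, 12.9 and 11.6 RPKM in KO-vesicle cells, against 1.56, 1.73 and 1.61 RPKM in medium cells (log2 fold change 2.27 ± 0.07, adjusted p = 1.54e-08), and Txnip, which blocks glucose uptake, 50.99, 48.6 and 43.9 RPKM in KO-vesicle cells, against 12.7, 12.7 and 12.4 RPKM in medium cells (log2 fold change 1.84 ± 0.05, adjusted p = 1.54e-08). Foxo6, a FOXO factor, was the exception, at 4.48, 3.996 and 4.65 RPKM in KO-vesicle cells, against 12.2, 13.3 and 11.2 RPKM in medium cells (-1.30 ± 0.07). Of 16 circadian genes 15 rose and 1 fell (median 0.60), in both arms of the clock. Tef, an output factor, had 32.3, 35.99 and 30.9 RPKM in KO-vesicle cells, against 7.78, 8.22 and 8.25 RPKM in medium cells (log2 fold change 1.90 ± 0.06, adjusted p = 1.54e-08). Nr1d1, the repressor REV-ERB alpha, had 14.3, 13.99 and 13.02 RPKM in KO-vesicle cells, against 4.61, 4.58 and 4.45 RPKM in medium cells (log2 fold change 1.41 ± 0.04, adjusted p = 2.13e-08), and Per3, a repressor of the core loop, 11.95, 13.4 and 11.1 RPKM in KO-vesicle cells, against 3.25, 3.11 and 3.01 RPKM in medium cells (log2 fold change 1.67 ± 0.06, adjusted p = 4.47e-08). Among the activators Clock rose by 0.64 ± 0.05 and Arntl, its partner BMAL1, by 0.37 ± 0.06. Nfil3, a repressor of the output genes, fell by 0.66 ± 0.06.

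Of 30 Wnt genes 20 rose and 8 fell (19 and 10 after rescaling), against 50.2% and 28.8% of all genes (39.4% and 39.3% after rescaling), and Wif1 rose most. Wls, which carries Wnt ligands to the surface, had 75.1, 72.5 and 71.7 RPKM in KO-vesicle cells, against 35.4, 35.7 and 35.05 RPKM in medium cells (log2 fold change 1.03 ± 0.03, adjusted p = 2.88e-08), and the receptor Fzd6 44.4, 45.8 and 42.8 RPKM in KO-vesicle cells, against 23.2, 24.2 and 22.2 RPKM in medium cells (0.91 ± 0.04). Of 30 TGF-beta pathway genes 20 rose and 7 fell (14 and 8 after rescaling), with a median of 0.22 against 0.13 over all genes. Ligands went both ways. Tgfb1 had 22.4, 27.8 and 24.98 RPKM in KO-vesicle cells, against 10.9, 10.4 and 10.01 RPKM in medium cells (log2 fold change 1.18 ± 0.07, adjusted p = 5.21e-07), while Tgfb2 fell by 0.52 ± 0.05 and Tgfb3 by 1.03 ± 0.07. Members that rose included the inhibitory Smad6, with 18.9, 20.02 and 18.2 RPKM in KO-vesicle cells, against 8.32, 8.27 and 8.23 RPKM in medium cells (log2 fold change 1.11 ± 0.04, adjusted p = 4.47e-08), Smad7 (0.90 ± 0.06) and the BMP targets Id1, Id2 and Id3, which rose by 0.66, 1.20 and 1.03. The fibrogenic target Ctgf fell by 0.61 ± 0.06. Immediate early and ERK feedback genes had 16 of 30 higher and 6 lower (13 and 9 after rescaling), again near the share of all genes. Spry2, an inhibitor of receptor signalling, had 50.05, 48.3 and 47.9 RPKM in KO-vesicle cells, against 17.4, 18.9 and 17.9 RPKM in medium cells (log2 fold change 1.38 ± 0.04, adjusted p = 1.54e-08).

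Matrix genes fell more often than they rose. Of 28 tested matrix genes 16 fell and 10 rose (median -0.29). Loxl2, which crosslinks collagen, had 25.3, 23.8 and 27.5 RPKM in KO-vesicle cells, against 89.7, 85.9 and 87.8 RPKM in medium cells (log2 fold change -1.74 ± 0.05, adjusted p = 1.54e-08), and Sparc, a secreted matrix glycoprotein, 189, 188 and 200.5 RPKM in KO-vesicle cells, against 369, 366 and 372 RPKM in medium cells (log2 fold change -0.93 ± 0.04, adjusted p = 9.56e-08). Collagens Col4a1 and Col1a1 fell by 1.91 ± 0.12 and 0.78 ± 0.04. Dcn, decorin, a proteoglycan that binds collagen and TGF-beta, was the exception of highest level, with 742, 865 and 755 RPKM in KO-vesicle cells, against 194, 200.4 and 192 RPKM in medium cells (log2 fold change 2.00 ± 0.06, adjusted p = 1.89e-08), and Pdgfra, a growth factor receptor of mesenchyme, rose to 5.4, 5.62 and 5.29 RPKM in KO-vesicle cells, against 1.14, 1.13 and 1.08 RPKM in medium cells (1.60 ± 0.05). The sum of 12 fibroblast markers, 792 to 917 RPKM in KO-vesicle cells and 273 to 282 RPKM in medium cells, consisted mostly of Dcn. Of the epithelial-mesenchymal list 4 of 12 rose and 5 fell (4 and 7 after rescaling), with Vim, vimentin, at 207, 235 and 242 RPKM in KO-vesicle cells, against 459.7, 446 and 462 RPKM in medium cells (log2 fold change -1.0004 ± 0.06, adjusted p = 5.38e-07). Proteases and inhibitors split evenly, 7 and 7 of 15 (6 and 8 after rescaling), with Timp1 lower by 1.32 ± 0.07 and Mmp3 higher by 1.15 ± 0.08.

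Sdc1 itself, deleted in the donors of the vesicles and intact in the recipient cells, fell a little. It had 50.6, 58.1 and 55.7 RPKM in KO-vesicle cells, against 69.1, 66.9 and 66.1 RPKM in medium cells, without overlap (log2 fold change -0.29 ± 0.05, adjusted p = 0.000607). Of the 21 tested heparan sulfate and syndecan genes 10 rose and 5 fell (8 and 8 after rescaling), near the shares of all genes under both scalings. Gpc4, a glypican, had 5.37, 6.1 and 6.03 RPKM in KO-vesicle cells, against 2.89, 2.59 and 2.37 RPKM in medium cells (log2 fold change 0.92 ± 0.07, adjusted p = 1.82e-06), and Sdc4 rose by 0.27 ± 0.04. Among 33 vesicle and endosome genes 20 rose and 7 fell (13 and 11 after rescaling), with a median of 0.20. Cd63, a tetraspanin of exosomes, had 316, 293 and 301 RPKM in KO-vesicle cells, against 177, 169.7 and 183 RPKM in medium cells (log2 fold change 0.78 ± 0.05, adjusted p = 4.83e-07). Sdcbp, the syndecan partner syntenin, rose by 0.32 ± 0.05, while Smpd3, which makes ceramide for vesicle budding, fell to 15.4, 14.2 and 13.3 RPKM in KO-vesicle cells, against 28.5, 29.8 and 29.1 RPKM in medium cells (log2 fold change -0.98 ± 0.05, adjusted p = 2.87e-07). MicroRNA machinery went 11 up and 6 down of 21, and 8 up and 9 down after rescaling, with a median of 0.15, near that of all genes. Ago4, an Argonaute protein, had 4.46, 4.66 and 4.3 RPKM in KO-vesicle cells, against 1.13, 1.21 and 1.07 RPKM in medium cells (log2 fold change 1.36 ± 0.05, adjusted p = 5.07e-08). Growth factor receptor genes counted 5 higher and 2 lower of 11 (4 and 5 after rescaling). In prostaglandin synthesis 3 of 9 rose and 5 fell, where Ptgs1, cyclooxygenase 1, had 0.205, 0.107 and 0.138 RPKM in KO-vesicle cells, against 2.02, 1.94 and 1.77 RPKM in medium cells (log2 fold change -1.34 ± 0.07, adjusted p = 1.99e-07) and the 2 leading increases were Ptgds and Cbr2.

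WT-vesicle cells differ from KO-vesicle cells in the genotype of the vesicle donors and in the vesicle preparation. The labels give neither dose nor the donors of each replicate, so genotype and preparation cannot be told apart. Both vesicle groups were set against the same 3 medium samples, so their fold changes share those values. Replicate 3 of the WT-vesicle cells stood apart on the second principal component (10.1% of the variance), at 2.27, where the other 2 were at -14.36 and -17.00 and the KO-vesicle cells at 6.93, 13.14 and 9.51. In the direct contrast of KO-vesicle with WT-vesicle cells, 1456 genes were higher (13.1%) and 603 lower (5.43%), and after rescaling 907 were higher and 954 lower. These counts changed strongly when 1 library was left out, and the cause was not tested. They were 0 and 0 without KO-vesicle replicate 2 or without WT-vesicle replicate 1 or 2, 1 and 1 without KO-vesicle replicate 3, and 3204 and 1479 without WT-vesicle replicate 3. Without medium replicate 1, 2 or 3 they were 544 and 188, 700 and 262, and 538 and 192. With limma on the 6 vesicle-treated samples alone 0 genes were called, although 3393 had an unadjusted p under 0.05.

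The largest changes with KO vesicles were set beside those with WT vesicles. Ptgds rose by 4.91 with KO vesicles and 4.71 with WT vesicles over medium, and the difference of 0.19 was not called (adjusted p = 0.119). Ifit3 rose by 3.87 with KO vesicles and 3.86 with WT vesicles (difference 0.01, adjusted p = 0.933), and over the interferon list the median difference between the vesicle kinds was 0.02 with 0 genes higher and 1, Cxcl10, lower in KO-vesicle cells (log2 difference -0.20, limma adjusted p = 0.0403). Sdc1 differed by 0.00 (adjusted p = 0.98). A p above the threshold does not show that the vesicles act alike. Among genes called in the direct contrast, Mt2 was lower by 0.67 and Mt1 by 0.94 in KO-vesicle than in WT-vesicle cells. Over medium, Mt1 was at -0.64 with KO vesicles and at 0.30 with WT vesicles. Ccnd1 was lower by 0.16, Lrp2 by 0.27 and Mgp by 0.58. Without rescaling, 18 of 44 G2 and M phase genes were higher and 0 lower in KO-vesicle than in WT-vesicle cells. Of all tested genes, 13.1% were called higher and 5.43% lower in this contrast. The median difference of the G2 and M phase genes was 0.13, against 0.04 over all tested genes, and Bub1 was higher by 0.36. The largest differences upward were the globins Hbb-bs (1.64), Hbb-bt (1.20) and Hba-a2 (1.09). Hbb-bs had 7.49, 1.90 and 0.686 RPKM in KO-vesicle cells, a mean of 0.111 RPKM in WT-vesicle cells, and 0.673, 0.846 and 0.189 RPKM in medium cells. The KO-vesicle and medium values overlap, and replicate 1 of the KO-vesicle cells is far above its group. Erythroid markers summed to 0.600 to 0.741 RPKM in WT-vesicle cells, and the part of erythroid RNA in these differences was not tested. The largest differences downward included Ndufa1 (-1.16), Rps29 (-0.94) and Rpl30 (-0.92), which encode small proteins of complex I and the ribosome. Ndufa1 had 116, 79.9 and 96.2 RPKM in KO-vesicle cells, against 279, 284 and 127 RPKM in WT-vesicle cells, where replicate 3 was far below the other 2.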

How the data were processed

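The authors deposited 1 table of RPKM values for 21950 genes in 9 MLE-12 samples, with no counts. RNA was taken up in Trizol and libraries were made with a stranded mRNA kit, per the labels' protocols. TopHat2 2.0.7 and the GRCm38/mm10 build are named in the submitters' processing notes; the read counter and annotation are not given in the sources used here. Of the gene IDs, 21748 matched GENCODE (GRCm38) and 202 did not. Groups came from the sample titles.

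Genes with a mean of at least 1 RPKM over the 6 samples were tested on log2(RPKM + 1) with limma 3.58.1 (R 4.3.3), with a variance trend and Benjamini-Hochberg adjustment over all tested genes, and called at 0.05. A fold change on this scale understates the change of low genes. The contrast with WT-vesicle cells used all 9 samples. RPKM steps gave whole reads, within 0.01, for 8912 of 18207 genes (48.9%), so no count test was run. The library totals from these steps are estimates of depth.

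Genes are named by rule: the 15 largest non-overlapping changes each way, of each list the 5 or fewer tested members lowest in p, Sdc1, the 8 largest differences each way from WT-vesicle cells and the 5 most abundant called genes each way. Some of these genes are not reported here. Others were added for their role after their values were seen. The genes, lists and tests were chosen with earlier results of these data known. Alternatives were another pseudocount (0.1), no filter or a minimum of 5, rescaling, a replicate block, no variance trend, all 9 samples, a fold threshold and leaving out each replicate. A run of the fit on simulated data used the spread of the medium samples and far fewer changed genes than were called here. It therefore does not speak for these calls. Tables and figures used Python 3.11.15 and matplotlib 3.10.9.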

Additional observations from a re-analysis of the deposited data

Results flagged for a closer look

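In 62 of the genes named by rule and reported here, the response to KO vesicles differed from the response to WT vesicles in the direct contrast (limma, adjusted p under 0.05). Both responses are over the same 3 medium samples. Over all 11099 tested genes, this contrast called 13.1% higher and 5.43% lower in KO-vesicle cells. The genes named for the largest differences from WT-vesicle cells were picked among those it called, so their calls follow from the rule. The values are log2 differences of KO-vesicle minus WT-vesicle cells, on log2(RPKM + 1). None of these calls held without KO-vesicle replicate 2 or without WT-vesicle replicate 1 or 2, where the contrast called 0 genes. In these fits 3127, 2848 and 2820 genes had an unadjusted limma p under 0.05, against 4238 with all 9 samples. The cause of the lost calls was not tested.

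The 30 genes higher in KO-vesicle cells fell into 3 ranges. Those at 0.8 or more were Hbb-bs 1.64, Hbb-bt 1.20, Hba-a2 1.09, Rps27rt 1.06, Slc24a5 1.00, Capn12 0.92, Sycp3 0.91 and Nox1 0.87. Over medium, Rps27rt, Slc24a5, Capn12, Sycp3 and Nox1 were at 0.12, -0.16, 0.02, -0.32 and -0.04 with KO vesicles, none called. With WT vesicles they were at -0.93, -1.16, -0.90, -1.23 and -0.91. Each of them was higher in WT-vesicle replicate 3 than in replicates 1 and 2. Hba-a2, Hbb-bt and Hbb-bs are globin genes, and erythroid markers summed to 17.4, 4.88 and 2.61 RPKM in KO-vesicle cells and to 0.600 to 0.741 RPKM in WT-vesicle cells; their part was not tested. Those between 0.3 and 0.8 were Rps2 0.59, Phlda1 0.44, Cyc1 0.41, Id3 0.40, Slbp 0.37, Mmp3 0.37, Bub1 0.36, Tlr4 0.32, Csf1r 0.32 and Smad6 0.30. The smallest were Tlr2 0.29, Clic5 0.26, Akr1b3 0.25, Bambi 0.24, Ndufb8 0.23, Bmf 0.22, Nr1d2 0.22, Tppp3 0.21, Rrm2 0.20, Irs2 0.17, E2f1 0.16 and Uvrag 0.14.

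The 32 genes lower in KO-vesicle cells were likewise spread in size. At -0.8 or below stood AY074887 -1.51, Teddm2 -1.41, Ndufa1 -1.16, Mt1 -0.94, Rps29 -0.94, Pfdn5 -0.94 and Rpl30 -0.92. Several of these, such as Rps29 and Rpl30, were lower in WT-vesicle replicate 3 than in replicates 1 and 2. Between -0.8 and -0.3 were Mt2 -0.67, Mgp -0.58, Rplp1 -0.55, Muc5b -0.52, Cbr3 -0.43, Atf5 -0.42, Eef1a1 -0.41, Sulf2 -0.41, Myc -0.36 and Eno1 -0.33. The smallest were Pgd -0.27, Lrp2 -0.27, B2m -0.27, Glb1 -0.21, Emp2 -0.20, Ikbke -0.17, Ccnd1 -0.16, Nr1h2 -0.16, Mybbp1a -0.16, Pdia6 -0.15, Flot2 -0.15, Nfkb1 -0.14, G6pdx -0.14, Hyou1 -0.14 and Pltp -0.12.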

How the results depend on the processing

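KO-vesicle against medium cells gave 5575 genes higher and 3197 lower. These counts were 5570 and 3195 with a pseudocount of 0.1, 5555 and 3169 with no variance trend, 5378 and 2970 with all 9 samples in the fit, 6796 and 3467 with no filter, 3818 and 2781 with a minimum of 5 RPKM, 4368 and 4364 after rescaling, and 578 and 234 at an absolute log2 fold change of at least 1. Leaving out 1 replicate gave 5258 to 5633 higher and 2979 to 3231 lower. Same-numbered KO-vesicle and medium samples had correlations of deviations of 0.1078, 0.2763 and 0.0732. Differently numbered samples had -0.2223, 0.1227, -0.0749, -0.2092, -0.0601 and -0.0152. Whether replicate numbers pair the samples was not tested. With a replicate block the counts were 5620 and 3277, and for KO-vesicle against WT-vesicle cells 1178 and 502, against 1456 and 603 without it. That contrast moved most with the processing: 1 and 0 genes with no filter, 907 and 954 after rescaling, and with limma on the 6 vesicle-treated samples alone 0 and 0, where 3393 genes had an unadjusted p under 0.05. Leaving out 1 replicate gave 0 to 3204 higher and 0 to 1479 lower, with 2820 to 5626 genes at an unadjusted p under 0.05. The cause was not tested. Of 247 named genes, 235 were called; 8 lost the call under at least 1 alternative, 7 gained one and 0 reversed. Of 82 list counts, 17 moved by over 1.5 times after rescaling, 12 with the minimum of 5, 5 with no filter and 70 at the fold threshold.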
